A study of Homo sapiens with 4 samples.

Results

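The miR-10 and miR-196 miRNAs of the HOX clusters were examined in the miR-seq data of U-251 cells, an established human glioma line. They were taken by name alone, as the mature miR-10a, miR-10b, miR-196a and miR-196b, whatever their level. This gave 4 of the 746 miRNA names listed, namely miR-196a-5p, miR-196b-5p, miR-10b-5p and miR-10a-5p, and all 4 had at least 10 counts in every library. The study contributed 4 biological replicates of U-251 cells without irradiation, which the labels call wild type and treated with DMSO as vehicle, while the paper's text describes basal conditions. All libraries therefore belonged to 1 group, and no comparison between conditions was possible. The paper names a miRNA library kit, whereas the labels describe capture of polyadenylated RNA. No 3p arm of these hairpins was among the names listed, so none could be analysed here. The arm in each name is taken as deposited. Values below are the unnormalized read counts of the authors, or the share of a library's counts in percent.

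miRNAs guide Argonaute proteins to mRNAs, mostly through the seed, bases 2 to 8 from the 5′ end. The HOX genes encode homeodomain transcription factors that set position along the body axis, and their order along each cluster follows their order of use. The miR-10 and miR-196 genes sit inside these clusters, are transcribed in the same direction as the HOX genes around them, and have HOX mRNAs among their known targets. In glioma, miR-10b and miR-196 are known as miRNAs that tumours express above normal brain.

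Mature sequences were found in RefSeq (GRCh38.p14) for 3 of the 4 members, and none was found there for miR-10b-5p. They are shown because the seed sets the targets and because the miR-196 paralogs are told apart by very few bases. The seed is in capitals, and Let-7a-5p, the miRNA with the highest count in these libraries, and miR-100-5p, a relative of miR-10 outside the HOX clusters, are given for comparison.
miR-196a-5p: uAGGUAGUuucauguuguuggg
miR-196b-5p: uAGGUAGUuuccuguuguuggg
miR-10a-5p: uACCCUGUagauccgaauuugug
let-7a-5p: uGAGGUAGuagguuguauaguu
miR-100-5p: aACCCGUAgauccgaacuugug

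miR-196a-5p and miR-196b-5p shared the seed AGGUAGU and differed by 1 base of 22, A12C, counted from 1 at the 5′ end with miR-196a-5p first. Of the 674 names of the sequencing table with a mature sequence in RefSeq, these 2 were the ones with that seed. The 7 bases of the miR-196 seed also occurred in Let-7a-5p, at its positions 3 to 9, so the Let-7 seed GAGGUAG and the miR-196 seed overlap but are shifted by 1 base. miR-10a-5p and miR-100-5p had a run of 11 bases in common, GUAGAUCCGAA, which begins at position 7 of the former and position 6 of the latter. The miR-196 paralogs are thus told apart by 1 base. miR-10b-5p was not compared, because its mature sequence was not found as an entry and was not taken from its hairpin. How many bases tell it from miR-10a-5p was therefore not examined. Each member's own count rests on the assignment of reads made by the authors.

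The 4 names correspond to 5 hairpin genes, since miR-196a-5p has 2. RefSeq and GENCODE release 44 gave the same position for each of them on GRCh38, the build of the authors' mapping (hg38). MIR10A (chromosome 17, 48579838 to 48579947, minus strand) lies in an intron of HOXB3 and within an exon of a long non-coding RNA, and HOXB4 begins 1487 bases downstream. MIR10B (chromosome 2, 176150303 to 176150412, plus strand) lies in an intron of HOXD3, with HOXD4 1137 bases downstream. The miR-10 hairpins thus lie beside paralogous genes of their clusters.

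MIR196A1 (chromosome 17, 48632490 to 48632559, minus strand) lies in an intron of the annotated span of HOXB7 and 6131 bases upstream of HOXB9. MIR196A2 (chromosome 12, 53991738 to 53991847, plus strand) lies in an intron of HOXC6, 1458 bases after HOXC10 and 3047 bases before HOXC9. MIR196B (chromosome 7, 27169480 to 27169563, minus strand) lies 1041 bases after HOXA10, within an exon of a non-coding transcript of HOXA9 and of the antisense gene HOXA10-AS. Each miR-196 hairpin accordingly lies upstream of, or inside, a HOX gene numbered 9, and every HOX gene within 15 kb was on the hairpin's own strand.

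**Figure D1:**
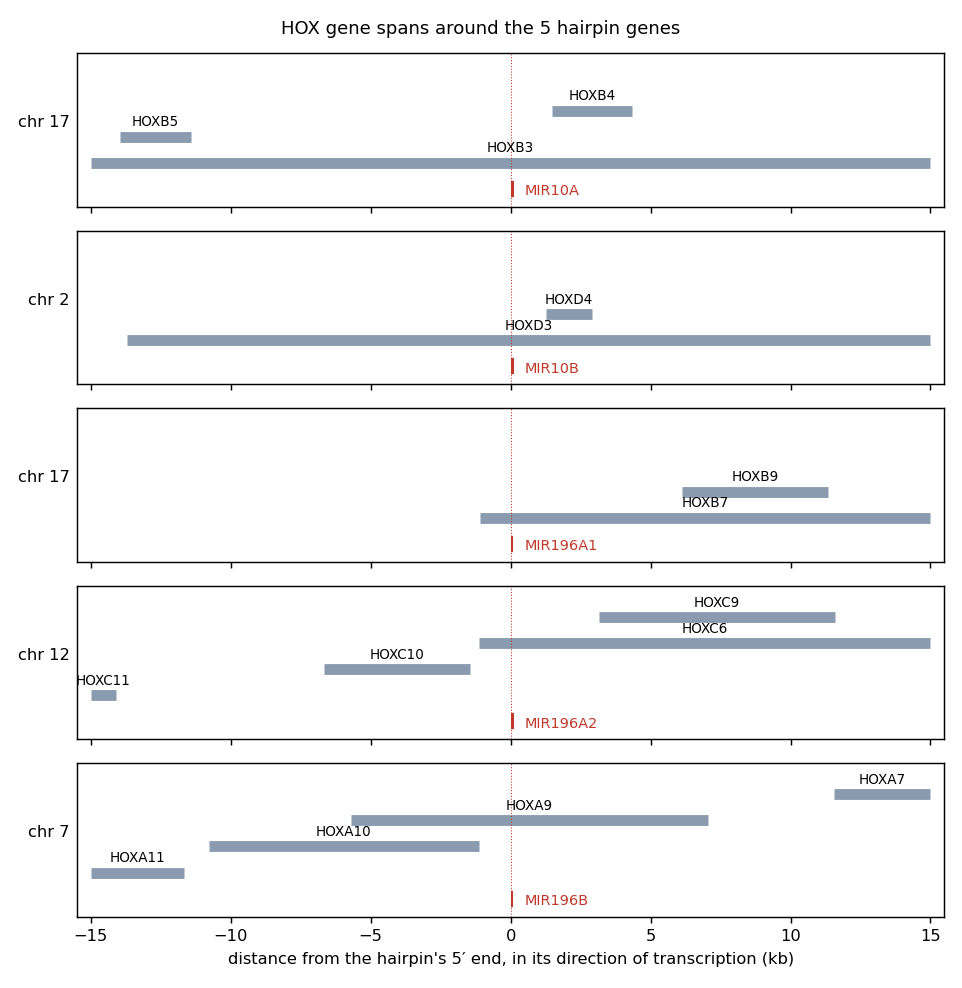
Spans of the HOX genes within 15 kb of each of the 5 hairpin genes. The horizontal axis is the distance from the 5′ end of the hairpin in kb, along its direction of transcription, grey bars are gene spans cut at 15 kb, and red bars are hairpins. HOXB4 and HOXD4 begin 1487 and 1137 bases downstream of MIR10A and MIR10B.

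HOX mRNAs were not measured in these libraries, so the target sequence is given as description only. Among the 3′ UTRs of 39 HOX genes (Ensembl canonical transcripts in GENCODE), the ungapped window with the most bases complementary to miR-196a-5p was in HOXB8, a gene of the same cluster as MIR196A1. It spans bases 48612770 to 48612791 of chromosome 17 (minus strand, GRCh38) and is shown because nearly its whole length pairs, with the Watson-Crick paired bases in capitals.
HOXB8 site: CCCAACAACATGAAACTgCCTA

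Of the 22 bases, 21 formed Watson-Crick pairs and the remaining 1 a G:U pair, which falls within the seed. The windows that followed, as in HOXA7, paired at 15 bases. miR-196b-5p, with its change at position 12, paired at 20 bases of the same HOXB8 window, and the windows that followed paired at 15, as in HOXA9 and HOXB4. For miR-10a-5p the highest number was 14 of 23, in both HOXB5 and HOXC13. The exact complement of the miR-196 seed, ACUACCU, searched on the transcript strand, was found in the 3′ UTRs of 8 of 39 HOX genes (20.5%) and of 1370 of 19527 protein-coding genes (7.02%). The 8 were HOXA5, HOXA7, HOXA9, HOXB1, HOXB6, HOXB7, HOXB13 and HOXC8, and HOXB8 is absent from them because of the G:U pair. For miR-10a-5p the share was lower among the HOX genes, but it rests on few genes, and neither difference was tested. The complement of its seed, ACAGGGU, was found in 3 of 39 HOX genes (7.69%) and in 2446 of 19527 genes (12.5%). The 3′ UTRs had a median length of 905 bases for the HOX genes and 1064 for all, so the sets were similar but not equal in length.

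In the libraries, miR-196a-5p was by far the most abundant of the 4. Replicates 1 to 4 held 138147, 130318, 144912 and 113689 counts of it, rounded to whole numbers, out of totals between 12363104 and 13214969 per library. The 4 values lay within 1.31-fold of each other when expressed as shares. miR-196a-5p held 1.04% ± 0.124 (SD, n = 4) of the counts and was the 14th of all names by summed count, between rank 13 and rank 17 in the single libraries. Its deposited values were not whole in 3 of 4 libraries, and the step behind this is not given in the sources used here.

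miR-196b-5p, from the HOXA cluster, had 11388, 11304, 11302 and 10777 counts in replicates 1 to 4. These values were nearly level. The share was 0.0881% ± 0.00354 (SD, n = 4), at rank 60.

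miR-10b-5p, from the HOXD cluster, had 9040 counts in replicate 1, against 5248, 3803 and 3985 in replicates 2, 3 and 4. Replicate 1 was therefore the highest by a wide margin, and the others lay closer together. Its share was 0.0435% ± 0.0195 (SD, n = 4), at rank 89 and between rank 65 and rank 101 in the single libraries. miR-10a-5p, from the HOXB cluster, had 6241 counts in replicate 1 and 4134, 2987 and 3192 in replicates 2, 3 and 4, with replicate 1 again the highest. Its share was 0.0326% ± 0.0119 (SD, n = 4), at rank 99. Counting error was small beside these differences, since the half-width of the 95% Wilson interval was between 0.512% and 3.59% of the share for every member and library. Such intervals cover counting error only.

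**Figure D2:**
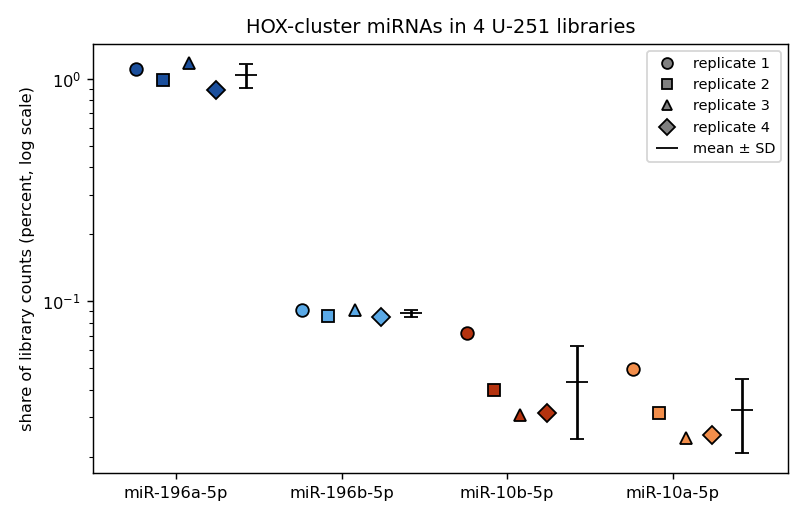
Share of the library's counts (percent, log scale) of the 4 members in each of the 4 U-251 libraries. Symbols mark replicates and the bars give the mean ± SD (n = 4). miR-196a-5p lies near 1.04%, and replicate 1 (circle) is the highest library for both miR-10 members.

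Together the 4 names held 1.20% ± 0.139 (SD, n = 4) of all counts. The miR-196 names held 1.13% ± 0.127 and the miR-10 names 0.0760% ± 0.0314 (SD, n = 4). The miR-196 sum exceeded the miR-10 sum by 9.79-fold, 15.1-fold, 23.0-fold and 17.3-fold in replicates 1 to 4. On the log2 scale the ratio averaged 3.96 (SD 0.51), and an exact permutation test that flips signs over the 4 libraries gave a two-sided p = 0.125, the smallest this design allows. The direction was thus the same in 4 of 4 libraries, and with 4 libraries this exact test cannot reach a p under 0.05.

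The order miR-196a-5p, miR-196b-5p, miR-10b-5p, miR-10a-5p held in every library. Each of the 6 pairs kept its direction in 4 of 4 libraries, for which the same exact test gave p = 0.125 per pair, and 0.125 after Benjamini-Hochberg adjustment over the 6. miR-196a-5p exceeded its HOXA paralog miR-196b-5p by 12.1-fold, 11.5-fold, 12.8-fold and 10.5-fold in replicates 1 to 4. The mean log2 ratio was 3.55 and its SD 0.12, so the distance between them was about the same in each library. The deposited value of miR-196a-5p was 138146.6667, 130318.3333 and 113688.5 in replicates 1, 2 and 4. A sum or a mean of 2 whole numbers cannot give the values of replicates 1 and 2. How the 2 hairpin genes enter the deposited value was not tested. With the value divided over the 2 genes, the log2 ratio of miR-196a-5p to miR-196b-5p would be 2.55. Taken as a mean and doubled, the value would bring the log2 ratio of the miR-196 sum to the miR-10 sum from 3.96 to 4.90. The share of the 4 members would go from 1.20% to 2.24%. The direction of these ratios was the same either way.

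miR-196b-5p stood nearest to miR-10b-5p. This distance and that of miR-196a-5p to miR-10b-5p were the least even, with an SD of the log2 ratio of 0.55 for each. The distance of miR-196b-5p to miR-10b-5p was 1.26-fold, 2.15-fold, 2.97-fold and 2.70-fold in replicates 1 to 4. Its log2 value averaged 1.11 (SD 0.55). In replicate 1 the levels of miR-196b-5p and miR-10b-5p were thus close.

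miR-10b-5p exceeded miR-10a-5p by 1.45-fold in replicate 1, 1.27-fold in replicates 2 and 3 and 1.25-fold in replicate 4. The mean log2 ratio was 0.39 with an SD of 0.10. Their separate log2 shares had SDs of 0.57 and 0.48, so the ratio of the miR-10 paralogs varied less between libraries than either miRNA. Both were highest in replicate 1, where 43 of 280 names (15.4%), these included, had an excess of at least 1.5-fold. The assignment of reads between the miR-10 paralogs was not tested.

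Over the 4 libraries the miR-196 members varied less than the miR-10 members. The coefficient of variation (CV, the SD divided by the mean of the shares) was 4.02% for miR-196b-5p and 11.9% for miR-196a-5p, against 44.9% for miR-10b-5p and 36.5% for miR-10a-5p. Over the 280 names with at least 10 counts in every library the median was 20.1%, and the middle 50% of names lay between 13.5% and 31.2%. Only 2 of the 280 names, both outside the members, had a lower CV than miR-196b-5p, and 50 had a lower one than miR-196a-5p. By contrast, 256 lay below miR-10b-5p and 233 below miR-10a-5p. These places depended on the measure and on replicate 1. By the tagwise dispersion of edgeR, 17 names lay below miR-196b-5p and 11 below miR-196a-5p. Without replicate 1, the names with a lower CV made up 5.39% for miR-196b-5p and 47.5% for miR-196a-5p, against 51.2% for miR-10b-5p and 49.2% for miR-10a-5p. Even for miR-196b-5p the spread exceeded counting error, which alone would give a CV of about 0.945%.

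**Figure D3:**
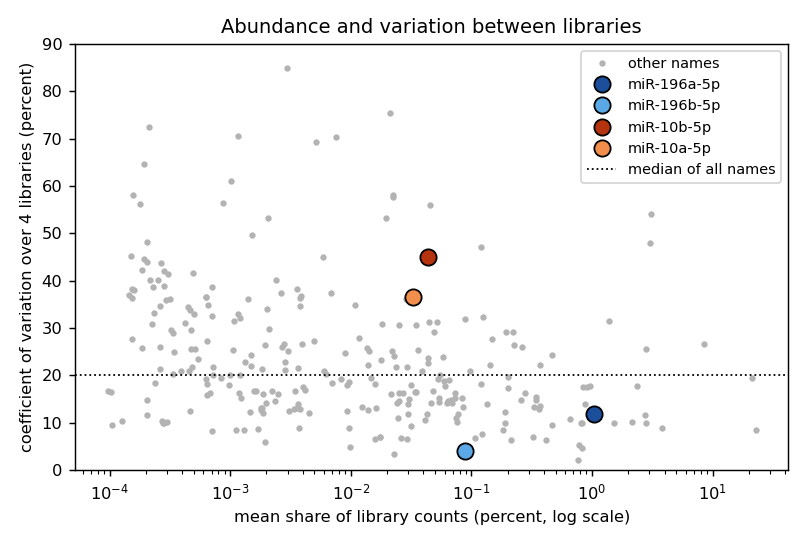
Coefficient of variation over the 4 libraries (percent) against the mean share of the counts (percent, log scale), for the 280 names with at least 10 counts in every library. The dotted line is the median of 20.1%. miR-196b-5p (4.02%) lies near the bottom and miR-10b-5p (44.9%) in the upper part.

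The high CV of the miR-10 members rested on 1 library. In replicate 1, miR-10b-5p was 2.13-fold and miR-10a-5p 1.85-fold above the mean of the other libraries, whereas miR-196a-5p and miR-196b-5p were 1.08-fold and 1.04-fold above it. On the log2 scale these differences were 1.09, 0.89, 0.12 and 0.06, and the median over the 280 names was -0.07. At least 1.5-fold excess in replicate 1 was found for 43 of the 280 names (15.4%), the miR-10 members among them. Without replicate 1 the CV fell to 14.8% for miR-10b-5p and 14.5% for miR-10a-5p, close to the median of 14.6% over 297 names in the remaining libraries, and to that of miR-196a-5p, which was then 14.0%. Of the 4 members only miR-196b-5p, at 4.27%, remained well below the median. The mean shares without replicate 1 were 0.0339% for miR-10b-5p and 0.0268% for miR-10a-5p.

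Dixon's ratio, the gap of the extreme library divided by the whole range, was 0.783 for miR-10b-5p and 0.722 for miR-10a-5p, 0.337 for miR-196a-5p and 0.147 for miR-196b-5p. None of the 4 passed the 95% critical value for 4 libraries, which 31 of the 280 names did (11.1%), 21 of them at replicate 1. The hairpin MIR10A had a GC content of 39.1% and MIR10B nearly the same. Those of the miR-196 members had 42.9% (MIR196A1), 48.2% (MIR196A2) and 47.6% (MIR196B). The order was not the same for the mature sequences, at 43.5% for miR-10a-5p, 40.9% for miR-196a-5p and 45.5% for miR-196b-5p. The part of GC content, and of any other property of replicate 1, in the miR-10 values was not tested.

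**Figure D4:**
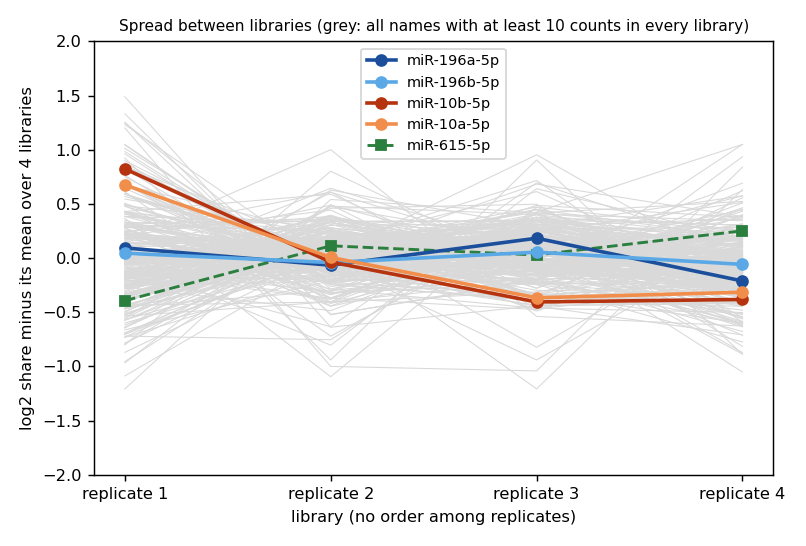
Log2 share minus its own mean over the 4 libraries, for the 4 members, for miR-615-5p and, in grey, for the 280 names with at least 10 counts in every library. Replicates have no order. The miR-10 members are high together in replicate 1, while miR-615-5p is lowest there and the miR-196 members stay near 0.

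Likeness of pattern was measured as the root mean square difference of these centred log2 shares over the 4 libraries, where a smaller value is a closer pattern. From miR-10b-5p, miR-10a-5p was at 0.086 and the second nearest of 279 names. Nearer still was miR-542-5p at 0.057, and miR-454-5p was the third at 0.11. From miR-10a-5p the nearest names were miR-9-5p, a miRNA known from neural progenitors, at 0.065, miR-200a-5p at 0.066 and miR-135b-5p at 0.067, and miR-10b-5p was the fourth. All of these were highest in replicate 1. For example, miR-9-5p held 2.02% there and 1.33%, 1.06% and 1.15% in replicates 2, 3 and 4.

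miR-196a-5p was nearest to miR-376a-5p at 0.035, miR-376b-5p at 0.040 and miR-582-5p at 0.055, and miR-196b-5p was the 14th. miR-196b-5p was nearest to miR-17-5p at 0.024, miR-503-5p at 0.032 and miR-24-2-5p at 0.053, all of which were also nearly level. The miR-196 members stood at least 0.40 from each miR-10 member. The order of the nearest names rests on 4 libraries and is a description.

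Most neighbours in the order of summed counts differed from the members by less than the spread between libraries. miR-9-5p lay above miR-196a-5p in 3 of 4 libraries, by 0.38 on the log2 scale on average (SD 0.42), and miR-15b-5p lay below it in 2 of 4. miR-20a-5p, just below miR-196b-5p, was lower in 2 of 4 libraries. miR-99a-5p lay above miR-10b-5p in 3 of 4, by 0.07 on the same scale (SD 0.30), and miR-15a-5p, next below in the sum, was lower in 1 of 4. miR-105-5p, just below miR-10a-5p, was likewise lower in 1 of 4. The exceptions had blank cells, as miR-100-5p above miR-196b-5p was blank in replicate 1 and higher in the other libraries, and miR-130b-5p above miR-10a-5p had values in 2 libraries only.

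A further miRNA gene of the HOX clusters is MIR615, on chromosome 12 (54033950 to 54034045, plus strand), in an intron of HOXC5. miR-615-5p had 2952, 4418, 3898 and 4691 counts in replicates 1 to 4 and held 0.0313% ± 0.00563 (SD, n = 4), at rank 101. Replicate 1 was its lowest library, opposite to the miR-10 members, and its hairpin has a GC content of 70.8%. Against miR-10a-5p its order was mixed. miR-10a-5p was 2.11-fold higher in replicate 1 and lower in the other libraries, and the log2 ratio averaged 0.01 (SD 0.74, exact permutation test over signs, p = 1). miR-10b-5p exceeded miR-615-5p in 2 of 4 libraries (same exact test, p = 0.625), and both miR-196 members did so in 4 of 4 (p = 0.125 for each in the same exact test).

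Of the miR-10 superfamily outside the HOX clusters, 4 names were listed. miR-125b-5p held 3.84% ± 0.340 and miR-125a-5p 2.17% ± 0.222, far above the miR-10 members, and miR-99a-5p held 0.0436% ± 0.00987 (SD, n = 4), level with miR-10b-5p. miR-100-5p had 18887, 16080 and 11922 counts in replicates 2, 3 and 4 and was blank in replicate 1.

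Let-7a-5p, of the miRNA family that the study is about, carries the 7 bases of the miR-196 seed shifted by 1 position, as shown above. It exceeded miR-196a-5p by 21.6-fold, 25.2-fold, 19.4-fold and 22.8-fold in replicates 1 to 4, or 4.47 on the log2 scale (SD 0.16). The 8 Let-7 names and miR-98-5p together held 62.6% ± 3.15 (SD, n = 4) of the counts, and their sum exceeded that of the miR-196 names 49.9-fold to 67.9-fold.

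Among miRNAs typical of other cells, miR-124-5p and miR-137-5p (neurons) and miR-451a (red blood cells) were blank in every library. A blank is no measured 0 here, since miR-100-5p was blank in 1 library beside at least 11922 counts in each of the others, so no upper limit is given for these names. The arm listed for miR-124 and miR-137 is also the minor one. The summed shares of the lists were 0.172% to 0.261% for neurons, nearly all of it miR-128-1-5p, 0.0121% to 0.0217% for red blood cells, 0.000106% to 0.000290% for white blood cells, 0.000283% to 0.000318% for oligodendrocytes, 0.00101% to 0.00358% for liver and 4.85e-05% to 0.000391% for muscle. miR-9-5p, of neural progenitors and astrocytes, held 1.06% to 2.02%. Nearly all of the red blood cell share was miR-486-5p. No miRNA defines a glioma line by itself, so these values are a description and do not check the label.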

How the data were processed

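miR-seq was analysed in 4 U-251 libraries of 1 group. The authors deposited unnormalized counts per miRNA name, handled here as estimated counts, since 40 names hold values that are not whole. Per the paper and the submitters' processing notes, base calls were converted with bcl2fastq 2.20, adaptors trimmed with Trimmomatic, long reads discarded and the rest mapped with Bowtie to hg38 and counted with miRDeep2. The miRNA annotation release and the use of molecular identifiers are not given in the sources used here. All columns matched a sample. Totals were 12363104 to 13214969 counts, and blanks were taken as 0. The 6 library pairs all differed beyond sampling noise (chi-square divided by its degrees of freedom, 549.9 to 3442).

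Python 3.11.15 was used for shares, CVs, Wilson intervals and exact permutation tests over signs, with scipy 1.17.1, numpy 2.4.6 and pandas 2.3.3, and matplotlib 3.10.9 for plots. Scaling factors and tagwise dispersions (intercept-only design, rounded counts, names with at least 10 counts in every library) came from R 4.3.3 with edgeR 4.0.16 and, for size factors, DESeq2 1.42.0. No conditions were compared. Steps were tested on simulated data. Sequences are from RefSeq (GRCh38.p14) and annotation from GENCODE release 44. Coordinates count from 1.

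The members and lists were chosen with earlier results of these data known. Named were all members, the 3 names nearest in pattern, the neighbours in rank, miR-615, miR-99, miR-100 and miR-125, cell type markers and HOX genes beside the hairpins or with complementary windows. Alternatives covered scaling, denominator, count minimum, pseudocount, hairpin number and leaving out each replicate.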

Additional observations from a re-analysis of the deposited data

Results flagged for a closer look

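Dixon's ratio was computed for 46 results, and in 6 of them 1 library lay beyond the 95% limit, where chance gives about 2.3. Over all names with at least 10 counts in every library the share was 11.1%. The 46 results also include ratios and names with blanks, so 6 of 46 is not directly comparable with that share. No excess is read from it. The log2 ratio of miR-10b-5p to miR-10a-5p had a Dixon ratio of 0.868, with replicate 1 at 1.45-fold and the others at 1.25-fold to 1.27-fold. miR-542-5p, the name nearest in pattern to miR-10b-5p, had 0.838, with 1233 counts in replicate 1 against 515 to 672 elsewhere. miR-454-5p, the third nearest, had 0.875, with 10519 counts in replicate 1 against 3799 to 4939 elsewhere. Both were named for their likeness to a miRNA that is high in replicate 1, so these values are not independent of that choice. Outside the HOX miRNAs, miR-150-5p had 0.905, with 37 counts in replicate 4 against 13 to 15 elsewhere. miR-144-5p and miR-142-5p had a ratio of 1, which is fixed by blanks taken as 0, as each had a value in a single library, of 6 and 3 counts respectively. The cause was not tested for any of these.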

How the results depend on the processing

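The direction of each of the 6 ratios between members, the number of members with at least 10 counts in every library and the number of members with a library standing apart did not change under any alternative run. The shares moved by construction with the Let-7 names left out of the denominator, to 3.21% for the 4 members, 2.77% for miR-196a-5p, 0.236% for miR-196b-5p, 0.114% for miR-10b-5p and 0.0856% for miR-10a-5p. Counting miR-196a-5p for each of its 2 hairpin genes (tried only after seeing the data) gave 2.24% for the 4 members. The CV of miR-196b-5p was 3.55% with upper-quartile, 5.38% with TMM and 5.56% with DESeq2 factors. The biological CV from the tagwise dispersion of edgeR, which draws each name towards the common value, was 17.0% for miR-196a-5p and 17.4% for miR-196b-5p. With one replicate left out the CV ranged from 8.64% to 14.0% for miR-196a-5p, 3.62% to 4.29% for miR-196b-5p, 14.8% to 53.0% for miR-10b-5p and 14.5% to 44.1% for miR-10a-5p, and the lowest of the last 2 were those without replicate 1. The nearest names were not stable, since leaving out a replicate kept as few as 0 of the 3 for miR-196a-5p, miR-196b-5p and miR-10b-5p. The share of names with a lower CV ranged, with a replicate left out, from 2.40% to 5.39% for miR-196b-5p (0.714% with all) and from 14.1% to 47.5% for miR-196a-5p. Of 60 recomputed ranks, places among all CVs and lists of nearest names, 37 stayed within the limit set for them (1 SD, or 1.5 times for the lists) and 23 did not. Dixon's ratio was not run on 3 libraries, and no second arm was listed to be summed. No paired analysis was possible because there is 1 group and nothing to pair it with. The CV over 4 libraries is itself imprecise, and the exact sign-flip test cannot give a p under 0.125 with 4 libraries.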

Other observations

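Values that are not whole were found for 40 names, miR-196a-5p among them. RefSeq has a mature sequence for 37 of these, and 22 of the 37 have 2 or more hairpin genes, as miR-196a-5p has. Among 525 names with whole values and a RefSeq sequence, 23 do. The step that gave such values was not tested.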
